A study of Saccharomyces cerevisiae with 8 samples.

Results

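Cuts made by MNase tethered to rpL35 were compared along the whole of 25S rRNA between an early and a late precursor of the large ribosomal subunit (LSU) of Saccharomyces cerevisiae. All 3396 nucleotides of 25S rRNA were taken, of 10000 template positions deposited for each purification, and the early and late values were matched by position. The comparison rests on 2 of the 8 libraries of the series, 1 for each precursor. There is thus no spread between replicates, and the values are given without an error or a test. Early particles, named 27SB-preLSUs, came from 6 litre cultures of a strain with Noc3-TAP, and late particles, named 25S-preLSUs, came from 2 litre cultures of a strain with Lsg1-TAP. In both strains the RPL35A and RPL35B genes were deleted, and MNase-HA-rpL35 was expressed from a plasmid under the RPS28 promoter as the only source of rpL35. The control strains carried the same TAP fusions but no MNase, and they kept the chromosomal RPL35 genes. All strains had the S288c background and were grown in YPD. Precursor, tagged factor, strain and culture volume changed together between the early and the late library and cannot be told apart.

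RpL35 (uL29) binds 5.8S rRNA and lies next to the exit of the tunnel through which the nascent polypeptide leaves the LSU. Micrococcal nuclease (MNase) needs calcium, so a fusion protein stays inactive during purification and cuts exposed rRNA within reach once calcium is added. In 27SB pre-rRNA the 5.8S and 25S rRNAs are still joined by the spacer ITS2, while Lsg1 is known for its role in late, cytoplasmic steps of LSU maturation. A cut in the rRNA ends the cDNA made by reverse transcriptase, and so does the end of an RNA or a base methylated on its pairing face.

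The deposited value is the termination to coverage ratio (TCR), the share of the cDNAs reaching a position which stop at it. TCR values are given in percent. Unless a single nucleotide is stated, a value is that of a window of 3 nucleotides, the named centre with its direct neighbours, and gives the probability of a stop at any of them. A window was called gained or lost in 25S-preLSUs when the higher value was over 2 times the lower and the difference was at least 5 percentage points and above the noise estimates of both purifications. For the MNase criterion the higher value also had to exceed 5-fold both its noise and the window of the matching control without nuclease, each in its own purification. The noise is that listed for the centre nucleotide, an estimate for 1 nucleotide which was not combined over the window. Multiples of the noise given for windows can therefore be larger than those of single nucleotides. Windows centred within 2 nucleotides of the 5' end of 25S rRNA or of m1A645, m1A2142, m3U2634 and m3U2843 were left out, and 3373 remained. The outer nucleotide of a kept window can still lie within that distance. The table holds no coverage, so the depth behind a TCR is unknown. In the R64 genome the first annotated copy of 25S rRNA, RDN25-1, spans 451786 to 455181 of chromosome XII on the reverse strand, and chromosomal positions below refer to it.

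The stops that need no nuclease were read first as a check of the labels. At the 5' end of 25S rRNA the highest TCR with MNase-rpL35 was 8.77% early and 91.1% late, and in the other 3 libraries it was 3.78% to 11.1% early and 92.7% to 93.1% late. Of the methylated bases, m1A645 had 99.2% early and 98.3% late with MNase-rpL35, m1A2142 had 99.1% and 92.4%, and m3U2634 had 86.3% and 89.5%. At m3U2843 the values were 75.7% and 39.7%, and the other libraries were also lower there late, with 57.8% to 66.6% early and 36.8% to 41.4% late. At m3U2634 the library without MNase had 66.0% early and 48.7% late. The libraries without MNase themselves stood far apart from each other. In that pair 109 windows were gained and 76 lost (3.23% and 2.25% of the windows), more than in the MNase-rpL35 pair in either direction. With 1 library per condition, a difference in quality between these libraries cannot be told apart from a difference between the precursors. The MNase criterion and all subtracted values rest on them. Values without MNase are therefore given for the windows described below.

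Between the precursors, 90 windows were gained and 40 were lost with MNase-rpL35, which is 2.67% and 1.19% of the windows. These joined into 32 gained and 16 lost sites. With the MNase criterion 17 windows were gained at 6 sites (0.504%) and 4 were lost at 2 sites (0.119%). In the other fusion strains the same criterion gave 30 gained and 5 lost windows with MNase-rpL27 (0.889% and 0.148%) and 14 gained and 5 lost with MNase-rpL5 (0.415% and 0.148%). The MNase criterion compares with the library without MNase, so that pair can give no such call. At 2740 windows, 81.2%, the early and late values with MNase-rpL35 lay within 1 percentage point of each other. Across the 281 nucleotides with a TCR above noise in either MNase-rpL35 library, Spearman's rho between early and late was 0.21. It was 0.11 over 356 nucleotides without MNase, -0.04 over 285 with MNase-rpL27 and 0.32 over 239 with MNase-rpL5, and nucleotides of a library are not independent of each other.

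**Figure D1:**
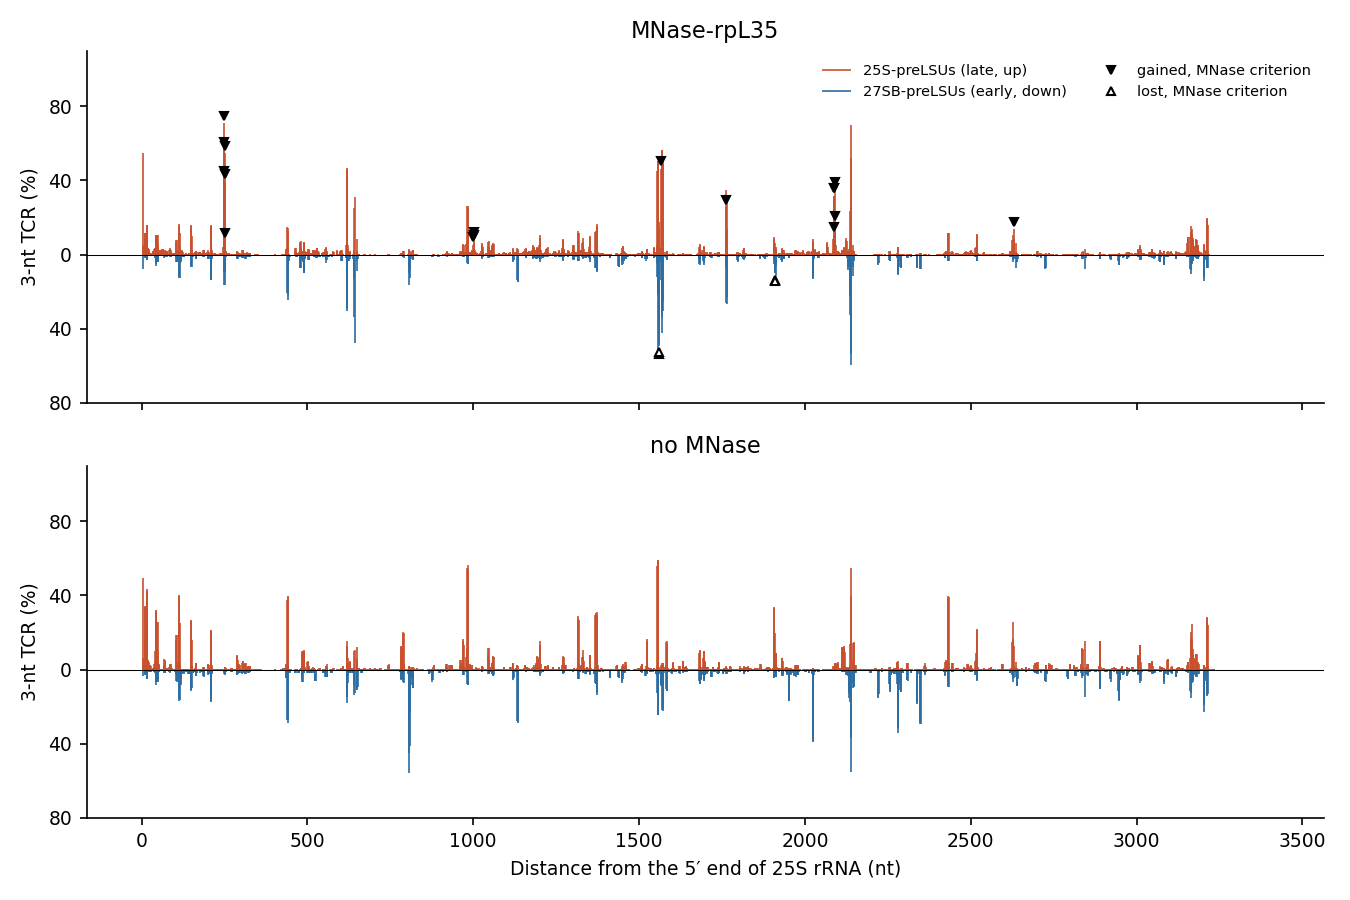
TCR of 3-nucleotide windows (percent) against the distance from the 5' end of 25S rRNA in nucleotides, with 25S-preLSUs drawn upwards and 27SB-preLSUs downwards, for MNase-rpL35 (top) and no MNase (bottom). Filled triangles mark the 17 gained and open triangles the 4 lost windows that met the MNase criterion, and many of the other peaks stand in both panels.

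The largest gain lay in domain I, in the internal loop between helices H16 and H17 around U250. The window centred on nucleotide 249 rose from 16.1% early to 70.9% late, by 54.8 percentage points. Without MNase the same window was at 2.50% early and 0.31% late. In all, 6 neighbouring windows were gained here, with centres from 247 to 252, and the window of U250 itself went from 16.2% to 54.7%. The site was thus already cut in 27SB-preLSUs, since its early value was 6.44 times the library without MNase and 17.1 times the noise.

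Single nucleotides showed that the early and late stops at this loop were not spread alike. In 27SB-preLSUs the stops lay on nucleotides 249 and 250, with 8.34% and 7.77%, and nucleotide 248 had 0.78%. In 25S-preLSUs nucleotide 248 was the strongest, with 38.6%, beside 27.3% at 249 and 34.9% at 250. Without MNase none of the 3 exceeded 1.33% in either precursor. Nucleotide 248 lies at 454934 of chromosome XII. With MNase-rpL27 the late stops covered the same 3 nucleotides, with 47.0%, 44.9% and 57.8%, and with MNase-rpL5 they reached 2.74%, 4.29% and 13.4%. Over nucleotides 244 to 255 the mean position of the stops differed by -0.53 nucleotides (late minus early) with MNase-rpL35. It differed by -0.69 with MNase-rpL27, -0.65 with MNase-rpL5 and 0.91 without MNase.

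In domain III, the expansion segment ES19 held a gain and a loss within a few nucleotides. The gain at U1568 was called for the window centred on 1567, which rose from 13.5% to 46.3%. Without MNase this window fell from 9.10% to 2.24%. With MNase-rpL27 it rose from 10.7% to 69.9%, and with MNase-rpL5 from 7.42% to 13.9%. Nucleotide U1568 alone, at 453614 of chromosome XII, went from 10.8% to 44.4%. The next nucleotide, 1569, went the other way, from 19.5% to 13.8%. A1571 went from 22.1% to 44.2% in single-nucleotide TCR, while without MNase it had 18.4% early and 2.77% late. Windows centred on U1568 and on the following 4 nucleotides rose by less than the 2-fold limit and were not called. Among them, U1568 went from 29.3% to 53.6% and A1571 from 30.2% to 52.9%. With the library without MNase subtracted, the difference at the window of A1571 was 41.7 percentage points in place of 22.7.

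The loss in ES19 was at A1559, the largest fall of all windows. The window centred on 1560 dropped from 48.5% in 27SB-preLSUs to 14.5% in 25S-preLSUs, a 3.34-fold difference, and without MNase it was at 1.31% and 0.47%. The other fusions lost this window too, from 41.8% to 12.8% with MNase-rpL27 and from 42.5% to 14.3% with MNase-rpL5. A1559 alone, at 453623 of chromosome XII, dropped from 46.4% to 13.5%. The late value of its window was still 17.5% and over 5 times both noise and the library without MNase, so A1559 remained a cut site in late particles.

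Towards the 5' end of the rRNA, 3 nucleotides before A1559, the opposite was measured. Nucleotide 1556 went from 8.39% to 42.9% with MNase-rpL35, but from 10.3% to 55.2% without MNase. The summed TCR over nucleotides 1556 to 1563 was 73.3 points early and 71.2 late, and its mean position differed by -1.49 nucleotides (late minus early), which is towards the 5' end. In the other libraries it moved the same way, by -0.63 without MNase, -1.08 with MNase-rpL27 and -0.87 with MNase-rpL5. Nucleotide 1556 carried most of the late sum, and it stopped the cDNAs without the nuclease too. The window of A1558, which spans the start of the lost stop, fell by 28.9 percentage points from 53.9% and did not meet the MNase criterion because the library without MNase had 16.6% there early. When the stop nucleotide alone was read, A1558 showed a difference of 1.56 points in the opposite direction.

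A further change in domain III lay at U1764, a site which both precursors showed. The window at 1762 rose from 6.84% to 25.5%, and without MNase it had 1.20% in both precursors. Its neighbours did not pass the limits, with 26.1% early and a 1.34-fold higher late value at 1763, and with 26.5% and 29.4% at U1764. The single nucleotides showed a move of the stop towards the 5' end. In 27SB-preLSUs U1764 had 20.9%, nucleotide 1763 had 5.08% and nucleotide 1762 had 1.54%. In 25S-preLSUs the values were 12.9%, 18.6% and 8.37%, so that 1763, at 453419 of chromosome XII, became the strongest. The summed TCR over the 10 nucleotides around it was 30.7 points early and 41.2 late with MNase-rpL35, and it lay between 1.36 and 4.10 in the 6 other libraries. The mean position over these nucleotides differed by -0.59 nucleotides (late minus early) with MNase-rpL35. At their low sums the other pairs moved the same way, by -0.99 without MNase, -0.63 with MNase-rpL27 and -0.98 with MNase-rpL5.

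**Figure D2:**
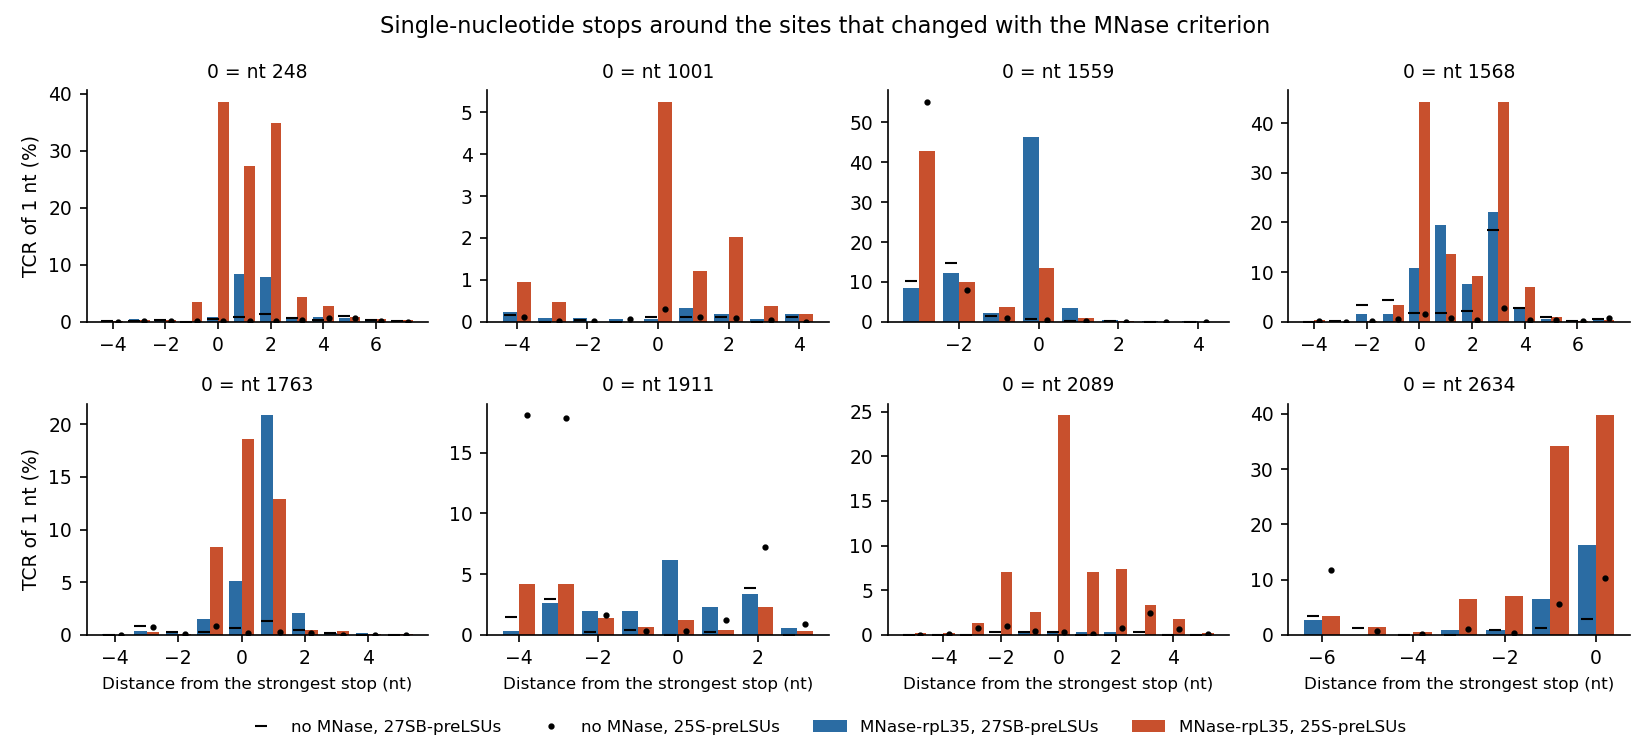
TCR of single nucleotides (percent) around the sites that changed with the MNase criterion, against the distance in nucleotides from the strongest stop of the zone, with bars for MNase-rpL35 in 27SB-preLSUs (blue) and 25S-preLSUs (red), dashes and dots for the libraries without MNase, and a vertical scale of its own in each panel. Around nucleotide 1763 the early maximum lies 1 nucleotide to the right of the late one, and around A1559 the late bar at the left edge is accompanied by a dot of 55.2% without MNase.

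In expansion segment ES27 cuts were seen in late particles, while early values lay under the noise. The window centred on nucleotide 2090 had 0.91% early, under the noise of 1.32%, and 35.2% late. In all, 5 windows from 2087 to 2091 were gained with the MNase criterion, and without MNase the value at 2090 was 0.29% early and 1.21% late. The strongest stop was A2089, at 453093 of chromosome XII, which went from 0.31% to 24.7%. Stops at 2087, 2090 and 2091 were between 7.01% and 7.42% in late particles, so the signal spread over more nucleotides than at A1559. With MNase-rpL27 the window at 2090 went from 0.98% to 65.4%, and with MNase-rpL5 from 0.97% to 17.6%. A2089 lies on the 5' side of m1A2142, around which 99.1% stopped early and 92.4% late with MNase-rpL35. A smaller share of cDNAs thus passed this base early, and few may stand behind the early values. The part of this in the gain was not tested.

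U2068, in another helix of ES27, had a late value of 6.91% with MNase-rpL35. In all 4 libraries of 27SB-preLSUs this window is listed at 0, so no fold is given. The late value was under 5 times the noise of 1.52% and U2068 did not meet the MNase criterion. A further window at 2125 was listed at 0 early and reached 8.96% late, again under 5 times the noise, and there the library without MNase had 3.0% early and 1.39% late. Like U2068, it lies on the 5' side of m1A2142, which few cDNAs passed, so few may stand behind the values of both.

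Helix H38 gave a small gain at G1001. The window at 1002 rose from 0.57%, under the noise of 1.11%, to 8.31%, and without MNase it was at 0.32% and 0.52%. G1001 alone, at 454181 of chromosome XII, went from 0.06% to 5.26%. The late value at 1002 was 14.2% with MNase-rpL27 and 52.3% with MNase-rpL5, and both had been under 2% early.

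The last gain with the MNase criterion was next to a methylated base. The window at 2631 rose from 1.72% to 13.6%, with 0.85% and 1.54% without MNase. It lies 3 nucleotides from m3U2634, on its 5' side. Its strongest stop, nucleotide 2632, is within 2 nucleotides of this base and went from 0.86% to 7.03%. Nucleotide 2633, beside the methylated base, went from 6.43% to 34.2% with MNase-rpL35, and from 1.26% to 5.60% without MNase. Around m3U2634, 86.3% stopped early and 89.5% late with MNase-rpL35, and 66.0% and 48.7% without MNase. Few cDNAs may therefore stand behind this window with MNase-rpL35. With MNase-rpL5 the window went from 5.12% to 14.5%. The part of the neighbouring stop in this gain was not tested. Leaving out 5 nucleotides on either side of the modified bases removed this window, so that setting could not call it. With the stop nucleotide alone the gain was not called.

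A second loss was found at nucleotide 1911, at 453271 of chromosome XII. The window fell from 10.1% in 27SB-preLSUs to 2.19% in 25S-preLSUs, a 4.62-fold difference, and the late value was 1.65 times the noise. Without MNase it had 0.62% early and 1.85% late. MNase-rpL5 gave 10.6% early and 9.0% late at this window, and MNase-rpL27 2.50% and 1.44%. The early single-nucleotide stop at 1911 was 6.18%. The call was lost with single nucleotides in place of windows, and also with windows of 5 nucleotides.

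**Figure D3:**
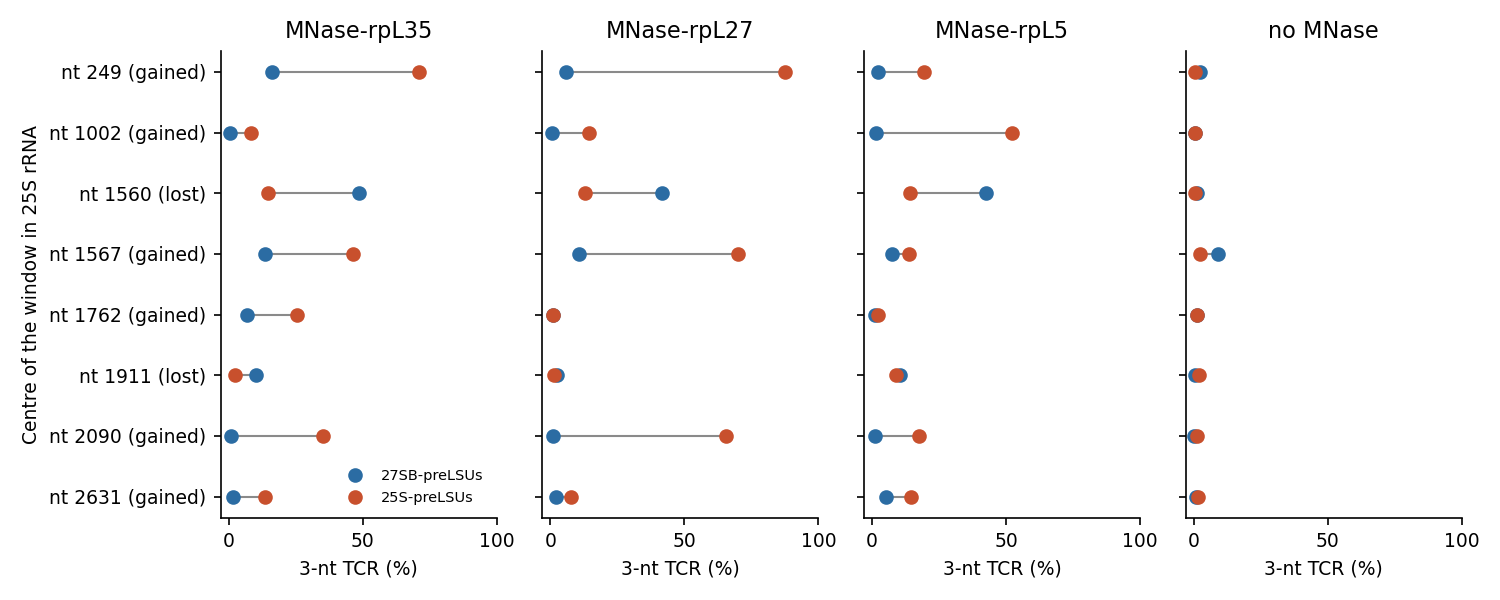
TCR of 3-nucleotide windows (percent, horizontal axis) at the 8 sites that changed with MNase-rpL35 and met the MNase criterion (vertical axis, centre of the window), with blue points for 27SB-preLSUs and red points for 25S-preLSUs in each fusion strain and without MNase. Without MNase all points lie at or below 9.10%, and at 1762 only the MNase-rpL35 panel shows values over 2.05%.

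A cut was a window of at least 15% that met the same limits of 5 times noise and 5 times the library without MNase. Of the 3373 windows, 8 were cut early and 19 late. They formed 4 early sites, around U250, A1559, nucleotide 1569 and U1764, and 5 late sites. The late list held these and A2089, and 6 windows were cut in both precursors. Of the 21 windows cut in either precursor, 13 were called gained or lost, beside 90 gained and 40 lost of all 3373 windows. Cut windows were chosen by a high value, on which the call depends too. The 8 that were not called were the 5 of ES19 named above and those centred on 1763 to 1765.

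Other strong stops with MNase-rpL35 did not meet these limits, and the library without MNase stopped at the ones described here too. In all, 58 of the 3373 windows had at least 15% in either precursor, the 21 cut windows among them. Of the 58, 26 were gained, 5 were lost and 27 were not called. Over all windows 2.67% were gained and 1.19% lost, but the 58 were chosen by a high value, on which the call depends too. The window centred on 619 went from 29.5% to 46.8% and was at 14.8% and 12.6% without MNase. Next to m1A645, the window at 642 had 47.6% early and 30.9% late, with 12.8% and 10.3% without MNase. The window at 441 went from 24.4% to 12.8%, while without MNase it went from 28.6% to 39.3%. The window at 2139 was at 59.4% and 69.7%, and 55.1% and 54.5% were measured without MNase. The windows at 619 and 642 lie on the 5' side of m1A645, and that at 2139 on the 5' side of m1A2142. Few cDNAs passed these bases with MNase-rpL35, so few may stand behind the values.

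**Figure D4:**
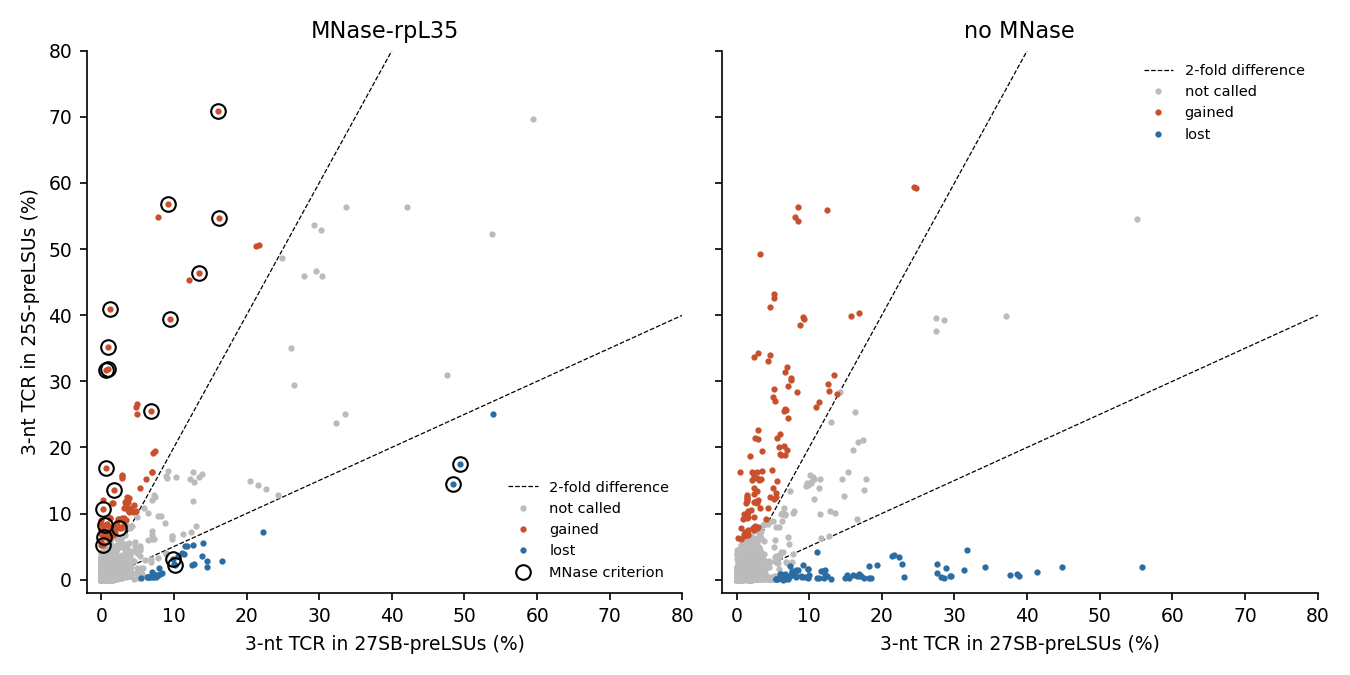
TCR of 3-nucleotide windows in 25S-preLSUs against that in 27SB-preLSUs (percent, linear axes) for MNase-rpL35 (left) and no MNase (right), with gained windows in red, lost windows in blue, circles around the 21 windows that met the MNase criterion and dashed lines at a 2-fold difference. In both panels most points lie near the origin, and without MNase 109 windows are red and 76 are blue.

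Most of the changed sites were of this second kind. Of the 32 gained sites 26 did not meet the MNase criterion, and in 21 of these the library without MNase gained at a window of the same site. Of the 16 lost sites 14 did not meet it, and in 10 of these the library without MNase lost too. Counted by windows, 51 of the 90 gains with MNase-rpL35 were also gains without MNase, which is 56.7% of the former and 46.8% of the 109 gains of the latter. For losses 25 windows were shared, 62.5% of the 40 and 32.9% of the 76. A single gained window, at 1567, was called in the opposite direction without MNase.

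At most gained sites without the MNase criterion, the late value was lower with MNase-rpL35 than without the nuclease. Over the 26 gained sites without the MNase criterion, the late value with MNase-rpL35 had a median of 9.80%, beside 23.2% without MNase, 4.95% with MNase-rpL27 and 4.62% with MNase-rpL5. At 19 of the 26 the late value without MNase was the higher one. The largest gain lay in the window centred on nucleotide 4, with 7.76% early and 54.9% late, and 49.3% late without MNase. Its strongest stop was nucleotide 3, within 2 nucleotides of the 5' end, with 7.02% early and 52.7% late. The window at 1555 rose from 12.1% to 45.3%, and from 12.4% to 55.9% without MNase. At 983 it rose from 4.88% to 26.5%, and from 8.42% to 56.3% without MNase, while MNase-rpL27 and MNase-rpL5 had 5.50% and 6.54% late. The window at 17 rose from 2.80% to 15.7%, and from 5.21% to 42.6% without MNase. At 10 the rise was from 1.48% to 11.6%, and from 2.34% to 33.7% without MNase. At 1317 it was from 3.56% to 12.6%, and from 5.13% to 28.9% without MNase. At 3213 MNase-rpL35 rose from 7.36% to 19.5%, and the library without MNase had 14.3% and 28.4%.

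Some of the losses without the MNase criterion showed another grouping of the libraries. Over these 14 lost sites the early median was 9.77% with MNase-rpL35, 13.7% without MNase, 16.3% with MNase-rpL27 and 5.62% with MNase-rpL5. At 8 of the 14 the early value without MNase was higher than that with MNase-rpL35, and the windows named next are among these. At the window centred on 807 the early TCR was 16.6% with MNase-rpL35 and 13.0% with MNase-rpL5, but 55.8% without MNase and 59.0% with MNase-rpL27. All 4 late values there were between 1.95% and 2.81%. At 1135 the early values were 14.5% with MNase-rpL35, 7.33% with MNase-rpL5, 28.6% without MNase and 33.5% with MNase-rpL27. The windows at 2281, 2338 and 2348 showed the same order, with 11.1%, 7.47% and 7.84% early for MNase-rpL35 and 34.1%, 18.6% and 29.5% without MNase. Their late values with MNase-rpL35 were 3.97%, 0.61% and 0.75%. What sets these stops apart between the libraries was not tested.

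Of the lost sites 4 of 16 lay within 12 nucleotides of an m1A or m3U base named above, as did 2 of the 32 gained sites. Of the 3373 windows 80 (2.37%) lay that near, but a site can join several windows, so the shares are not alike. The limit of 12 nucleotides was not part of the plan and equals the distance of the window at 2130 from m1A2142. Enrichment was not tested. The window at 2136, 6 nucleotides from m1A2142, fell from 22.2% to 7.26%. Without MNase it had 5.71% and 2.46%, and with MNase-rpL5 it fell from 23.3% to 8.69%. The window at 640, 5 nucleotides from m1A645, fell from 12.8% to 2.31%, beside 8.47% and 1.39% without MNase. At 2130 the early value of 8.43% stood against 0 in the library without MNase and in that with MNase-rpL27, and it was under 5 times the noise of 4.61%. The cDNAs that stop at these windows had first to pass m1A2142 or m1A645. With MNase-rpL35, 99.1% stopped around m1A2142 early and 92.4% late, and 99.2% and 98.3% around m1A645. Few cDNAs may therefore stand behind these values, and their number is unknown.

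The remaining sites that the study had described were read with the same windows. In ES31, A2540 had 0.24% early and 1.53% late with MNase-rpL35, and U2570 had 0.04% and 0.41%. Both differences were under the limit of 5 percentage points, and the late value at U2570 was 0.49% without MNase. In H81, A2640 went from 4.00% to 0.55% with MNase-rpL35 and from 9.0% to 0.43% without MNase, while it went from 32.8% to 0.75% with MNase-rpL5. A2643 was under 1% in both MNase-rpL35 libraries. Selection of cDNAs by size limits which cuts this method can show, so a low TCR is not evidence that a site was uncut.

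Sums over bins of 100 nucleotides described where along 25S rRNA the change with MNase-rpL35 fell. The summed TCR of MNase-rpL35 rose in 19 of 34 bins and fell in 14, and the sum without MNase moved in the same direction in 19. The largest rise was 92.9 points in nucleotides 201 to 300, which hold U250, where the sum without MNase changed by 0.69. In nucleotides 2001 to 2100, which hold ES27 sites U2068 and A2089, the sum rose by 75.1 points and that without MNase fell by 38.5. In nucleotides 1 to 100 it rose by 69.8 points, but the library without MNase rose by 145. Taking the difference between MNase-rpL35 and no MNase turned the direction in 11 bins. In nucleotides 801 to 900, MNase-rpL35 fell by 20.6 points and the subtracted value rose by 77.9, because the library without MNase fell by 98.4.

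**Figure D5:**
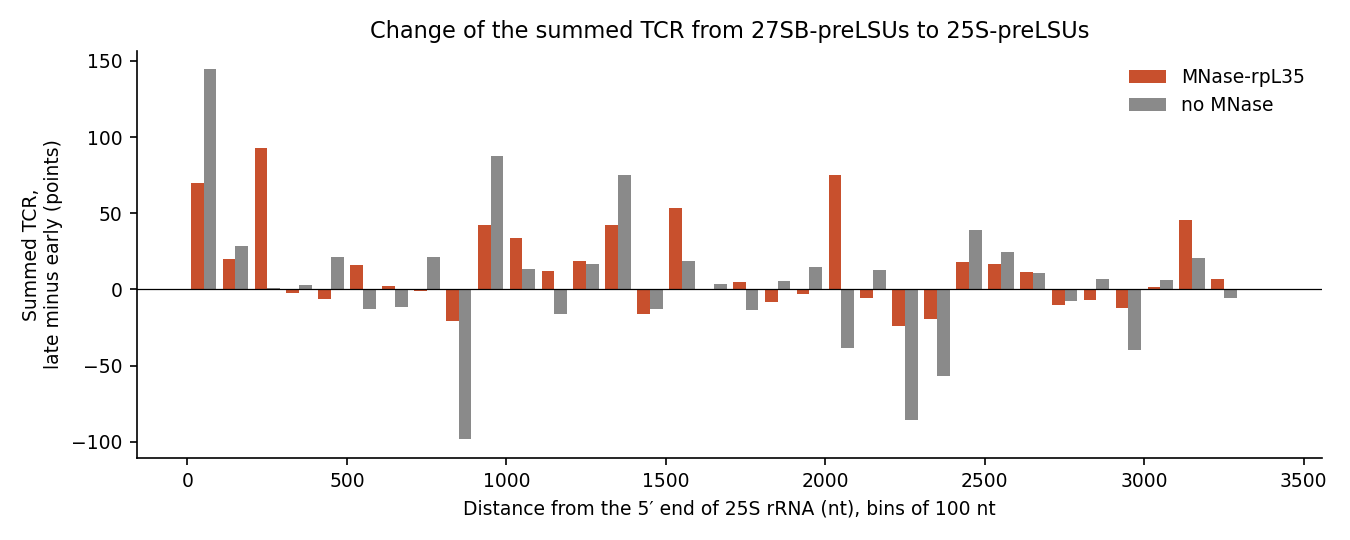
Change of the summed TCR from 27SB-preLSUs to 25S-preLSUs (percentage points, late minus early) in bins of 100 nucleotides along 25S rRNA, for MNase-rpL35 (red) and no MNase (grey). The red bars at 201 to 300, 1501 to 1600 and 2001 to 2100 stand above 50, where the grey bars are at 0.69, 18.3 and -38.5. The red bar at 1 to 100 also does, at 69.8, beside a grey bar of 145. The largest grey bars lie at 1 to 100 and at 801 to 900.

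Over the kept nucleotides the TCR with MNase-rpL35 summed to 1182 points in 27SB-preLSUs and to 1630 in 25S-preLSUs. Without MNase the sums were 1507 and 1682. The increases with MNase-rpL35 added up to 877 points over 1316 nucleotides, of which the 10 largest held 28.1%. The decreases added up to 428 points over 1390 nucleotides, of which the 10 largest held 24.7%. A TCR of 0 was listed for 1020 kept nucleotides early and 1107 late, and 667 were at 0 in both. The last 150 nucleotides, from 3247 to 3396, were at 0 in both MNase-rpL35 libraries, so no change could be read there.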

How the data were processed

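Purified LSU precursors were treated with calcium, and cuts were read by random primer extension. Per the labels and the study's methods, the authors mapped reads with Bowtie2 (version not given in the sources used here) to the R64 (sacCer3) genome, drew a fixed number of reads per library, filtered by insert size and quality and collapsed barcodes. The deposited TCR and noise are each a fraction between 0 and 1, with no coverage. The noise is the authors' estimate over all libraries of a purification.

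For a window, the shares of cDNAs passing each of its 3 nucleotides were multiplied, and the window's TCR is what remains to 1, in percent. Called windows within 2 nucleotides of each other were joined, and the nucleotide of highest TCR on the higher side was the site. All sites with the MNase criterion, the 10 largest others in each direction, uncalled cuts and the sites named by the study were eligible for naming. The windows at 619, 642, 441 and 2139 were chosen after their values were seen. Members, lists and limits were chosen with earlier results of these data known. Calling was tested on simulated data, with strong gains and losses placed only where noise and values without MNase were low. Both libraries without MNase were made alike there, so the test does not cover the difference found between them. No sequence of 25S rRNA was used here, so bases are those named by the study. Python 3.11.15, numpy 2.4.6, pandas 2.3.3, scipy 1.17.1 and matplotlib 3.10.9 were used.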

Additional observations from a re-analysis of the deposited data

Results flagged for a closer look

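MNase-rpL35 and another library were called in opposite directions at 4 sites, each given by its window of largest difference, and none of these differences was tested, as each rests on 1 library per condition. At the window centred on 1567 the late value minus the early value was 32.8 percentage points with MNase-rpL35 and -6.86 without MNase. At 2432 it was 8.35 with MNase-rpL35, -5.16 with MNase-rpL27 and -5.10 with MNase-rpL5. For MNase-rpL35 against MNase-rpL5 it was 8.57 and -6.12 at 3166, and 12.1 and -7.43 at 3213.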

How the results depend on the processing

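With 1 library per condition no value has a replicate check, and with no coverage in the table the depth limits are unknown. No paired analysis was possible because each condition has 1 library and the result comes from no test. The planned comparison of bases at gained and lost sites was not run, since no sequence was used here. The sites around nucleotides 248 and 1763, U1568, A2089 and A1559 were found under all 17 alternatives, G1001 under 14, 2632 under 12 and 1911 under 11. Alternatives that only loosened a limit, left nothing out or joined windows more widely could not lose a called site. They add to these counts by construction. The setting with 5 nucleotides left out near nuclease-free stops removed the window at 2631, so 2632 could not be found there. For the values below the cause was not tested beyond what a stricter or looser limit does by construction. The 90 gained windows became 27 and the 40 lost ones 10 with the stop nucleotide alone, 145 and 66 with a 5-nucleotide window, 39 and 11 with the library without MNase subtracted, 171 and 72 at a minimum difference of 2 points, 27 and 10 at 10 points and 18 and 3 at 15 points. With the maximum of the window, 51 were gained. The 48 gained and lost sites became 31, 17, 75, 16 and 8 for the stop nucleotide alone, subtraction and minimum differences of 2, 10 and 15 points, and 30 with the maximum. The 17 gains with the MNase criterion became 8 with the stop nucleotide alone, 11 at 15 points, 30 with a limit of 2 times noise and no MNase, and 10 with a limit of 10 times. The 4 losses became 1 with the stop nucleotide alone, 2 with the 5-nucleotide window, the maximum and minimum differences of 10 and 15 points, 8 with a limit of 2 times and 2 with 10 times. The 8 sites became 5 at 15 points, 14 with a limit of 2 times and 5 with 10 times. Spearman's rho of 0.21 became 0.62 over all positions, 0.32 with the nuclease-free stops kept and 0.46 after subtraction. The bin with the largest change after subtraction, 114 points, was at 75.1 without it, and the lowest bin, at -74.8 points, turned to 69.8. At A1558 the difference of -28.9 points turned to 1.56 with the stop nucleotide alone. The limit on the higher of both libraries without MNase was added after seeing the data, and it left 16 gained and 3 lost windows and 8 sites. Values of single windows were compared with the larger noise estimate, which is not a spread between libraries.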
